A study of Mus musculus with 2 samples.

Results

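Arginine metabolism was described here through 8 genes: Arg1, Arg2, Nos2, Slc7a1, Slc7a2, Ass1, Odc1 and Sat1, which are 8 of the 31053 genes in the count matrices. They were taken as a list of enzymes and transporters of the pathway, and none of them was used to sort the cells. The cells came from brain tumours of C57BL/6 mice, labelled mIDH1 (tumours with an IDH1 mutation) at the symptomatic stage. All cells are from this single group, in 2 libraries, so no tumour without the mutation and no normal brain enters any comparison. The labels do not say whether the libraries came from separate mice, and p-values therefore measure only the spread between these 2 libraries, which may be technical.

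Arginine is a shared substrate. Arginases (Arg1 in the cytosol, Arg2 in mitochondria) split it into ornithine and urea, while inducible nitric oxide synthase (Nos2) turns it into nitric oxide and citrulline. Myeloid cells that carry these enzymes are known for depleting arginine around T cells, which need it to divide. The cationic amino acid transporters Slc7a1 and Slc7a2 bring arginine into cells, argininosuccinate synthase (Ass1) starts its resynthesis from citrulline, ornithine decarboxylase (Odc1) makes the polyamine putrescine from ornithine, and Sat1 acetylates spermidine and spermine so that they can be exported or broken down.

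The deposited matrices held 2704 and 2266 cell barcodes, with medians of 32091 and 35769 UMIs (unique molecular identifiers, 1 per captured transcript) in the cells kept. Cells with at least 200 genes and at most 15% mitochondrial UMIs were kept, 1740 and 1446. A tumour cell was a barcode with at least 1000 CPM of Nras (CPM, counts per 1000000 UMIs of a cell or class), a macrophage or microglial cell one with at least 5 C1qa UMIs, split at 2 Cx3cr1 UMIs. Monocytes had Ly6c2 with at least 5 Lyz2 UMIs, neutrophils at least 10 UMIs of S100a8 and S100a9, basophils a Mcpt8, dendritic cells (DC) a Ccr7 and T cells a Cd3e UMI. The 2618 cells that passed a single gate were analysed by class, 331 passed no gate and 237 passed several. The classes held 1816 tumour cells, 346 Cx3cr1-high macrophages, 95 Cx3cr1-low macrophages, 64 monocytes, 31 neutrophils, 138 basophils, 76 DC and 52 T cells. The libraries shared 10 barcodes, none of which passed a single gate in both.

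Most markers that the gates did not use were present in their classes. Nes was at 109.7 CPM in tumour cells, 2.27 CPM in Cx3cr1-high macrophages and 0 in Cx3cr1-low ones. Retnlg and Cxcr2 were at 4250 and 1445 CPM in neutrophils, where Ngp and Ltf were at 14.2 CPM each and Camp had no UMI. Ccr2 was at 1202 CPM in monocytes and Cd3g at 1818 CPM in T cells. DC had Fscn1 at 2633 CPM. Their H2-Aa, at 634 CPM, was below the 1358 CPM of monocytes and the 1177 CPM of Cx3cr1-high macrophages. Microglial Tmem119 was at 500 CPM in Cx3cr1-high and 208 CPM in Cx3cr1-low macrophages, so that both classes carried microglial RNA. Markers of mast cells stood beside those of basophils in the Mcpt8 gate (Cma1 at 998 CPM), 5.07% of its cells had a UMI of Nes or Sox2, and 134 further Mcpt8-positive barcodes passed the tumour gate and were left out. The Ccr7 gate also held B cell RNA (Cd79a at 132 CPM). Depth differed between classes: the median was 44092 UMIs in tumour cells, 10242 in Cx3cr1-high and 3381 in Cx3cr1-low macrophages. Of the 95 Cx3cr1-low barcodes 79 (83.2%) had no UMI of the nuclear RNA Malat1, against 45 of the 346 Cx3cr1-high ones. Haemoglobin made up 6800 CPM, against 326 CPM, but this rested on library 1. Hbb-bs, Hba-a1 and Hbb-bt together were at 12175 and 40.3 CPM in the Cx3cr1-low libraries, and at 22.2 and 576 CPM in the Cx3cr1-high ones. Only 1 Cx3cr1-low barcode was over 1% haemoglobin. A Cx3cr1 limit in raw UMIs sends shallow cells to the low side, and 68 of the 95 had no Cx3cr1 UMI at all. Scaled to depth, Cx3cr1, the gene of the split, was at 69.2 CPM in the low and 1297 CPM in the high class. Leaving out barcodes over 1% haemoglobin kept 25 of the 26 calls of members made in the tests below. Beyond such changes of setting, the part of depth and of these signs in the results on that class was not tested.

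Promoters are shown for the 4 members called between tumour and immune cells. Slc7a1 and Odc1 were higher in tumour cells, and Sat1 and Ass1 were lower. RefSeq entries for GRCm38.p6 matched 4 of the 8 members (Slc7a1, Odc1, Sat1 and Ass1); Arg1, Arg2, Nos2 and Slc7a2 are named only. Each sequence runs 5′ to 3′ on the gene's strand and ends just before the annotated start of the gene. Capitals mark the GC box GGGCGG, searched on both strands (CCGCCC on the other), which overlapped no second match.
Slc7a1, 250 bases at chr5:148399905-148400154, minus strand: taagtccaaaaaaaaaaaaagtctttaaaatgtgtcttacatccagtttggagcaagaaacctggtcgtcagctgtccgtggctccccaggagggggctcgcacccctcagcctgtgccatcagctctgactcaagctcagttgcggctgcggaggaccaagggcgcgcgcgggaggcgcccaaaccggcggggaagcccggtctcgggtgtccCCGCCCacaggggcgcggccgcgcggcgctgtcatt
Odc1, 171 bases at chr12:17544623-17544793, plus strand: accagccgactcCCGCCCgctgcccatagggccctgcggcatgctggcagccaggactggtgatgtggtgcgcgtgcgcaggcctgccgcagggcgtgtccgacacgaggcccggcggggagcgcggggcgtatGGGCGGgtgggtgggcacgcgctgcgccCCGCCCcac
Sat1, 250 bases at chrX:155216450-155216699, minus strand: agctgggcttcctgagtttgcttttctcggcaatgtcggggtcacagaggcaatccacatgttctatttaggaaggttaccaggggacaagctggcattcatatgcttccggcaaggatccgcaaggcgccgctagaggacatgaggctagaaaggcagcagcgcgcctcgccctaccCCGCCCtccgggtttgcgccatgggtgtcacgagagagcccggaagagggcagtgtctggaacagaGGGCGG
Ass1, 187 bases at chr2:31470020-31470206, plus strand: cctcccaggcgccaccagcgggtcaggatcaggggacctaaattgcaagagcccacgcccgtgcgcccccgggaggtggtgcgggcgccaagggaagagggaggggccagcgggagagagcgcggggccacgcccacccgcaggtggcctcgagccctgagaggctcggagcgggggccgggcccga
The Odc1 stretch held 3 GC boxes, and 19.6% of 32851 promoters held any in the first 171 bases of their entry. The Slc7a1 stretch held 1 and the Sat1 stretch 2, against 32.7% of promoters with any in the first 250 bases. The Ass1 stretch held none, and 22.2% of promoters held any in the first 187 bases. These shares are matched for length and not for distance to the start of the gene. G and C made up 77.2% of the Odc1, 75.4% of the Ass1, 62.4% of the Slc7a1 and 59.6% of the Sat1 stretch. Of the members that were lower in tumour cells, Sat1 thus had the box in this window and Ass1 did not.

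The 8 genes lie on 7 chromosomes of GRCm38 (mm10), all protein coding. Arg1 (ENSMUSG00000019987) is at chr10:24915221-24927484 and Arg2 (ENSMUSG00000021125) at chr12:79130777-79156301, a chromosome it shares with Odc1 (chr12:17544794-17551505). Nos2 (ENSMUSG00000020826) is at chr11:78920787-78960254, Ass1 at chr2:31470207-31520672, Slc7a1 at chr5:148327410-148399904, Slc7a2 at chr8:40862396-40922308 and Sat1 at chrX:155213132-155216449.

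**Figure D1:**
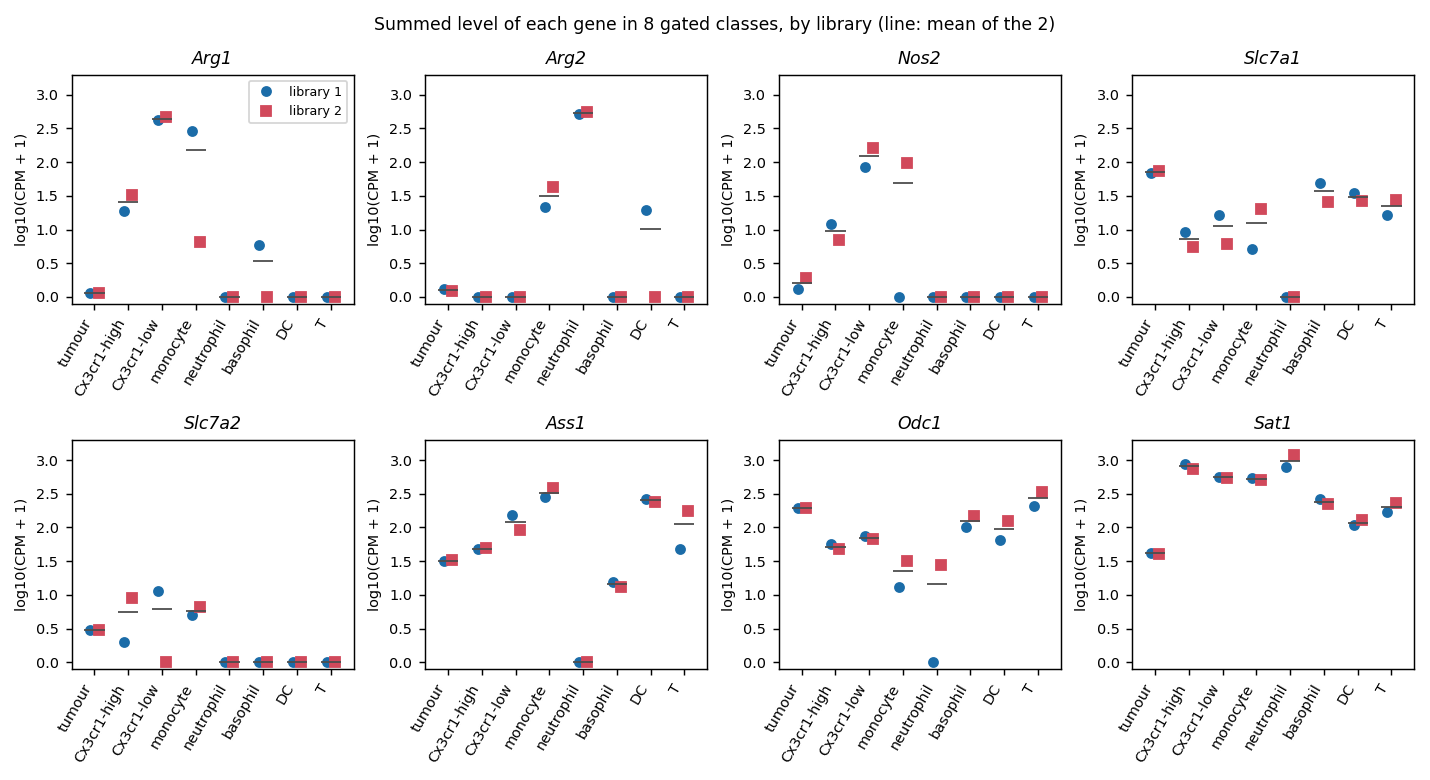
Summed level of each gene (log10 of CPM + 1) in 8 gated classes, 1 point per library and a line at the mean of both. Arg1 and Nos2 are highest in Cx3cr1-low macrophages and Arg2 in neutrophils. Monocyte Nos2 comes from library 2 alone, and monocyte Arg1 mostly from library 1.

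Arg1, the arginase of alternatively activated macrophages, was concentrated in few myeloid cells. In Cx3cr1-low macrophages it was at 418 and 463 CPM in libraries 1 and 2, and 21.1% of the 95 cells had a UMI (95% exact binomial interval 13.4 to 30.6%, which, like all intervals here, covers counting error only). In Cx3cr1-high macrophages it was at 18.2 and 31.2 CPM, with a UMI in 3.18% of 346 cells. The libraries did not overlap between these classes, and both put the Cx3cr1-low class on top. Over both libraries Arg1 in the Cx3cr1-low class was at 441 CPM, and it was at 282 CPM among the 16 barcodes with a Malat1 UMI and 747 CPM with all cells passing the gate. In tumour cells Arg1 was at 0.147 and 0.156 CPM, from 14 UMIs in 1816 deeply sequenced cells. Neutrophils, DC and T cells had none. By the floor of 3 counts that allows up to 9.68% of 31 neutrophils, 3.95% of 76 DC and 5.77% of 52 T cells with a UMI at these depths, and it sets no limit on cells that express the gene.

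In monocytes, Arg1 differed widely between libraries: 290.4 CPM in library 1 and 5.53 CPM in library 2. Only 7 of the 64 monocytes had a UMI, and a single cell held 47.9% of the monocytes' 73 UMIs. Cx3cr1-low macrophages were above Cx3cr1-high ones in both libraries, and the monocytes' place in the order differed between the libraries.

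Arg2, the mitochondrial arginase, was highest in neutrophils. There it was at 516 and 558 CPM, 537 ± 29.1 CPM (SD, n = 2), and 74.2% of the 31 cells had a UMI (55.4 to 88.1%). Monocytes followed with 20.4 and 41.5 CPM and a UMI in 12.5% of cells. Both macrophage classes had no Arg2 UMI, so that the neutrophil level was at least 712-fold that of Cx3cr1-high and at least 70.0-fold that of Cx3cr1-low macrophages, each against a floor of 3 UMIs over the class. With all cells passing a gate, cells of several gates included, Arg2 was at 139.7 CPM in 50 neutrophils, 2.41 CPM (12 UMIs) in Cx3cr1-high and 8.54 CPM (5 UMIs) in Cx3cr1-low macrophages. Basophils and T cells also had none, DC had 5 UMIs in a single cell, and tumour cells were at 0.294 and 0.245 CPM. No single cell carried the neutrophil value, since the highest held 3 of the 38 UMIs.

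Nos2, the inducible nitric oxide synthase of classically activated macrophages, was highest in the same class as Arg1. Cx3cr1-low macrophages had 83.5 and 161 CPM, with a UMI in 12.6% of cells (6.70 to 21.0%). Cx3cr1-high macrophages had 11.1 and 6.04 CPM, in 2.02% of cells. Monocytes had 0 and 96.8 CPM, from 3 cells of library 2. Neutrophils, basophils, DC and T cells had no Nos2 UMI, and tumour cells were at 0.315 and 0.914 CPM. The floor of 3 UMIs over the neutrophil class was 42.5 CPM, above the Cx3cr1-high level, so that these 2 classes cannot be put in order.

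In edgeR's quasi-likelihood test on the sums per class and library, Cx3cr1-low macrophages stood above Cx3cr1-high ones for 3 of the 8 members, where 2.33% of all 13457 genes tested were called (adjusted p under 0.05 and a log2 fold change of at least 1 either way). Arg1 rose by 4.18 ± 0.59 on the log2 scale (SE, Benjamini-Hochberg adjusted p = 0.000758) and Nos2 by 3.81 ± 0.66 (adjusted p = 0.00605). Ass1 rose by 1.38 ± 0.35 (adjusted p = 0.0446), a call kept in 10 of 15 other settings. A robust version of the same test ended the calls of Arg1 (adjusted p = 0.0969) and of Nos2 (adjusted p = 0.13), with the same fold changes. DESeq2 kept Arg1 and lost Nos2 (adjusted p = 0.198).

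Against all other immune classes 3 members were called higher in the Cx3cr1-low class, Arg1, Nos2 and Sat1, where 8.55% of genes were called. For Arg1, Arg2 and Nos2 such a mean of log levels runs over classes without a UMI: its SE reached 6174 for Arg1 in tumour cells, and its fold changes are not given. The other immune cells were instead added up in each library, a comparison chosen after seeing the data. For the Cx3cr1-low class the largest part of that sum was the Cx3cr1-high class, with 346 cells and 3969185 UMIs. Cx3cr1-low macrophages then stood 4.19 ± 0.37 above them for Arg1 and 3.65 ± 0.23 for Nos2 on the log2 scale (unadjusted p = 0.00133 and 0.00051), with an adjusted p of 0.303 for both. With 4 sums this edgeR test called 0 of 10124 genes in that class, although 1490 had an unadjusted p under 0.05.

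In the same summed comparison tumour cells had less of all 3 enzymes, with 48% of genes called. Arg1 fell by 8.47 ± 0.21 (adjusted p = 2.37e-11), Nos2 by 4.92 ± 0.24 (adjusted p = 9.30e-09) and Arg2 by 5.19 ± 0.33 (adjusted p = 9.12e-08) on the log2 scale. Cx3cr1-high macrophages were below the summed other immune cells for Arg1, which fell by 1.75 ± 0.34 (adjusted p = 0.00326), with 27.5% of genes called. Monocytes were above for Arg2, by 2.28 ± 0.46 (adjusted p = 0.0449), with 9.04% of genes called, and their Arg1 difference of 1.44 did not pass (adjusted p = 0.387).

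The neutrophil class had 15 and 16 cells, under the 20 per library set for the test, and was tested only in an added version with at least 10. There 3 members were called, with 8.71% of genes called: Arg2 and Sat1 higher and Ass1 lower. Sat1 rose by 1.16 ± 0.22 (adjusted p = 0.00109) and Arg2 had an adjusted p of 5.79e-07. Against the summed other immune cells Arg2 was 6.66 ± 0.33 higher (adjusted p = 0.112), and only 2 genes were called at all. Ass1 had no UMI in the 31 neutrophils.

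**Figure D2:**
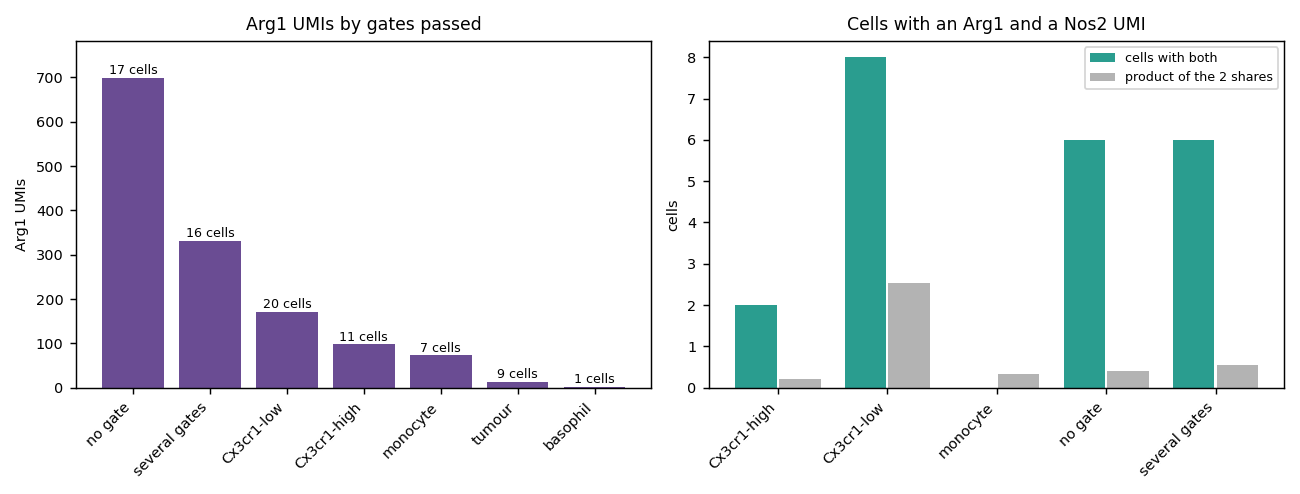
Left, Arg1 UMIs (bars) and the number of Arg1-positive cells (text) by the gates passed; 699 UMIs are in 17 cells that passed no gate. Right, the number of cells with both an Arg1 and a Nos2 UMI beside the number that the product of both shares gives; cells with both outnumber that product in every set shown except the monocytes, where there were none.

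Most Arg1 RNA lay outside the single-gate classes. Of the 1389 Arg1 UMIs in kept cells, 699 (50.3%) were in 17 cells that passed no gate, with up to 130 UMIs in a cell. Cells that passed several gates held a further 331 UMIs in 16 cells, 15 of which passed a macrophage gate together with another. Of those, 2 passed the Cx3cr1-low macrophage and the neutrophil gate and held 106 UMIs, and 1 more, which also passed the monocyte gate, held 116. The 31 cells with at least 10 Arg1 UMIs held 88.1% of all Arg1 UMIs.

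The 17 cells without a gate, 12 in library 1 and 5 in library 2, carried other myeloid RNA. Lyz2, lysozyme of myeloid cells, was found in 10 of them at 6011 CPM, against 23.9 CPM in the other 314 cells without a gate. Csf1r, the receptor for macrophage growth factors, was found in 14 of them at 280 CPM, against 4.16 CPM. Ccr2, the receptor that brings monocytes into tissue, was found in 9, against 30 of the 314. Cebpb, a transcription factor of the myeloid line, was found in 16, and also in 208 of the 314 others, at 2641 against 363 CPM. None had a UMI of Sox2, Nes or Ly6c2, and 4 had C1qa, below the limit of that gate. These values describe cells picked for Arg1 and were not tested.

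Arg1 and Nos2 were found together in Cx3cr1-low macrophages more often than the product of their shares gives. Of the 95 Cx3cr1-low macrophages 20 had Arg1, 12 had Nos2 and 8 had both, where the product of the shares gives 2.53. Each library had 4 such cells, against 1.13 and 1.43. Over all kept cells 81 had Arg1, 49 had Nos2 and 22 had both (10 and 12 per library), against a product of 1.25, a figure that also reflects that both genes are myeloid. The other 59 Arg1-positive cells had no Nos2 UMI, among them all 7 monocytes and all 9 tumour cells. Depth moved with it in the Cx3cr1-low class: the median was 6813 UMIs in cells with both and 2957 in cells with neither. With every cell thinned to 1000 UMIs the expected count was 3.15 cells with both against 0.93 from the product. Among the 16 Cx3cr1-low barcodes with a Malat1 UMI the ratio of cells with both to the product was 1.33, in place of 3.17.

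Arg1 also went with Ass1, the first enzyme of arginine resynthesis. Among 505 macrophages and monocytes 38 had Arg1, 122 had Ass1 and 21 had both, against 9.18 from the product, and the libraries gave 11 and 10 such cells. That product pools classes whose shares differ. Arg1 was found in 3.18% of Cx3cr1-high macrophages, 21.1% of Cx3cr1-low ones and 10.9% of monocytes, and Ass1 in 19.7%, 18.9% and 56.2%. All 7 Arg1-positive monocytes had Ass1, where the product gives 3.94. Arg1 and Arg2 met in 3 monocytes, against 0.88. In neutrophils Arg2 and Sat1 were found together in 17 cells, the number that the product gives (17.1).

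The 38 Arg1-positive macrophages and monocytes were set beside the 467 others as a description. Vegfa, the angiogenic growth factor, was at 243 and 43.4 CPM in the libraries of the positive and at 6.12 and 8.20 CPM in those of the negative cells. Smox, spermine oxidase, was at 387 and 152 CPM against 70.8 and 87.2 CPM. Both genes were higher in the Arg1-positive cells of either library. Tmem119, a marker of microglia, was lower, at 144 and 148 CPM against 445 and 430 CPM. Ccl24, a chemokine of alternatively activated macrophages, was at 910 CPM in library 1 and 0 in library 2, from 3 cells, so that its difference rests on a single library. The 2 sets also differ in class, as 20 of the 38 were Cx3cr1-low.

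Slc7a1, a cationic amino acid importer that most dividing cells use, was highest in tumour cells. It was at 67.9 and 71.9 CPM in tumour cells, with a UMI in 79.9% of them. The highest immune value was 48.5 CPM, in basophils of library 1, where library 2 had 24.3 CPM. Cx3cr1-high macrophages had 8.07 and 4.53 CPM, and neutrophils none. The tumour libraries thus lay above every immune class in either library. At 1000 UMIs per cell tumour cells were still highest, with a UMI in 6.44%, against 0.473% of Cx3cr1-high macrophages. The order among immune classes changed, with T cells at 2.13% and basophils at 1.28%.

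Slc7a2, the transporter that macrophages are known to raise with Nos2 and Arg1, was rare. Tumour cells were at 2.06 and 1.98 CPM, with a UMI in 8.20% of cells at their greater depth. Monocytes were at 4.09 and 5.53 CPM from 3 UMIs, and Cx3cr1-low macrophages at 10.4 and 0 CPM from 2 UMIs in a single cell. In Cx3cr1-high macrophages it was at 1.01 and 8.06 CPM, of which a single cell gave 13 of 18 UMIs. Neutrophils, basophils, DC and T cells had none. It was called in none of the 9 comparisons of classes, and its log2 difference between tumour and summed immune cells was -0.86 ± 0.43 (adjusted p = 0.0962).

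Ass1 was highest in monocytes and DC. Monocytes had 278 and 379 CPM and DC 264 and 239 CPM, with a UMI in 56.2% and 55.3% of cells. The monocyte libraries lay above the DC libraries, a difference that was not tested. Cx3cr1-low macrophages had 151 and 90.6 CPM, T cells 46.4 and 175 CPM and Cx3cr1-high macrophages 46.9 and 48.3 CPM. A single T cell of library 2 held 18 of the 39 T cell UMIs. Tumour cells, at 30.7 and 31.9 CPM, and basophils, at 14.5 and 12.2 CPM, were lowest among classes with any. The basophil value came from 11 UMIs in 4 of 138 cells. The median depth of these 4 was 75519.5 UMIs, against 3209 in the basophils without Ass1. Tumour cells still had a UMI in 62.1% of cells at their greater depth, and 3.06% at 1000 UMIs, against 21.8% of monocytes.

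Odc1, the enzyme that commits ornithine to polyamines, was highest in T cells and tumour cells. T cells had 209 and 334 CPM, with a UMI in 48.1% of cells. Tumour cells had 190 and 195 CPM, in 95.6% of cells. Basophils had 99.4 and 146 CPM from only 9.42% of cells, and 5 of them held 91.1% of the UMIs. Without the 7 basophils that had a UMI of Nes or Sox2, Odc1 in basophils was at 17.2 CPM (8 UMIs), in place of 123 CPM over both libraries, and with all cells passing the gate it was at 197 CPM. DC had 63.2 and 123 CPM, macrophages between 46.3 and 73.1 CPM and monocytes 12.3 and 30.4 CPM. T cells lay above every other immune class in both libraries, and tumour cells lay just under the lower T cell library.

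Sat1, which takes polyamines out of the pool, was highest in neutrophils, macrophages and monocytes. Cx3cr1-high macrophages had 876 and 743 CPM, with a UMI in 97.1% of cells, and neutrophils 790 and 1168 CPM. Cx3cr1-low macrophages had 564 and 544 CPM and monocytes 532 and 506 CPM. Basophils followed with 259 and 224 CPM, T cells with 170 and 228 CPM and DC with 108 and 127 CPM. Tumour cells were lowest, at 41.3 and 39.8 CPM. Cx3cr1-high macrophages and neutrophils overlapped, and every class was above the tumour cells in both libraries.

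**Figure D3:**
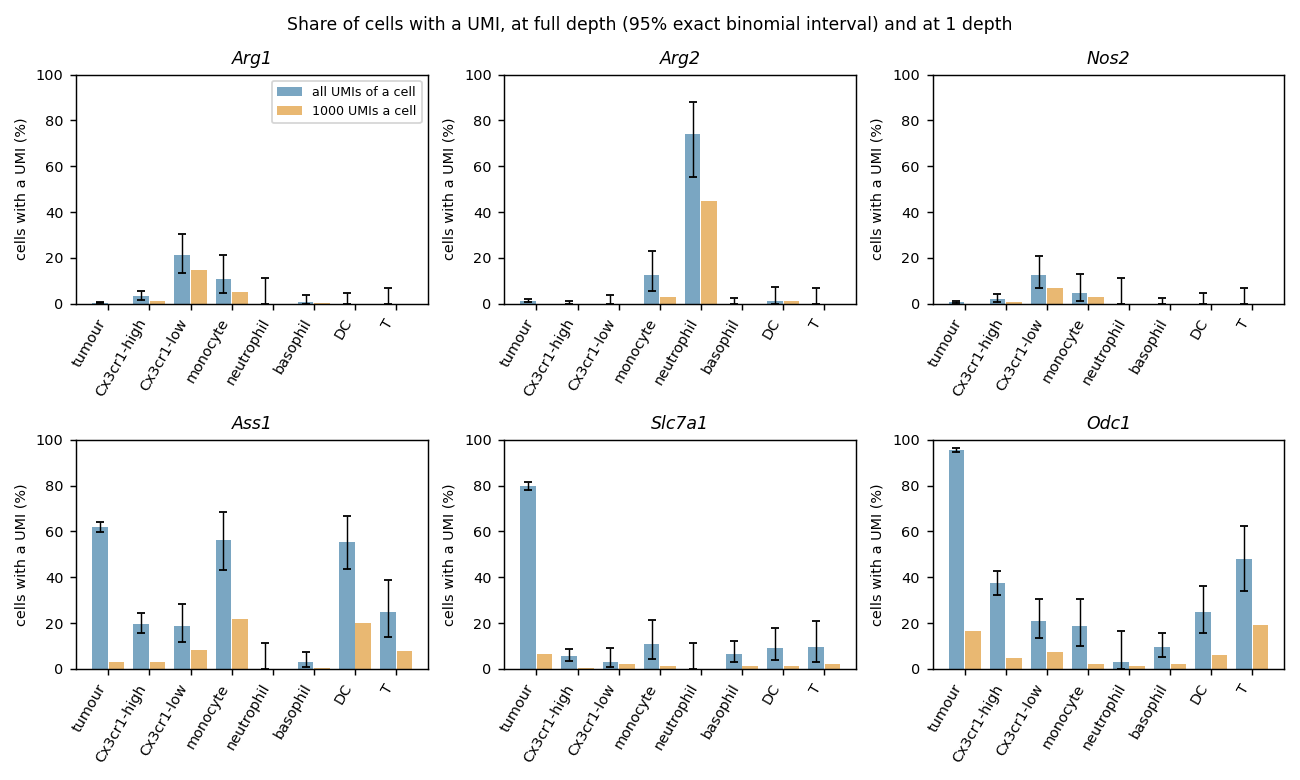
Share of cells with a UMI (percent) in each class at full depth (blue, with 95% exact binomial intervals) and with every cell thinned to 1000 UMIs (orange). Thinning takes the tumour share of Slc7a1 from 79.9% to 6.44% and leaves tumour cells highest; for Ass1 it leaves monocytes at 21.8% and tumour cells at 3.06%.

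Tumour cells were compared with the mean of 6 immune classes, and 4 of the 8 members were called, where 37.6% of genes were called. Slc7a1 rose by 2.13 ± 0.21 on the log2 scale (adjusted p = 1.19e-07) and Odc1 by 1.33 ± 0.15 (adjusted p = 8.42e-07). Ass1 fell by 1.56 ± 0.21 (adjusted p = 7.35e-06) and Sat1 fell by 2.99 ± 0.14 (adjusted p = 1.89e-11). The median over all genes was 0.76 in this comparison, and 3849 genes were called higher and 1214 lower. With RLE scaling factors the median was 0.61 and the split 3355 to 1416, and with DESeq2, which changes the model and test as well, 0.15 and 2216 to 2149. The 4 members kept their calls in both. Ass1 changed sign, to 0.25, when the neutrophils, which have no Ass1 UMI, entered the mean of immune classes, and fell by 1.68 ± 0.10 against the summed immune cells (adjusted p = 4.82e-08).

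**Figure D4:**
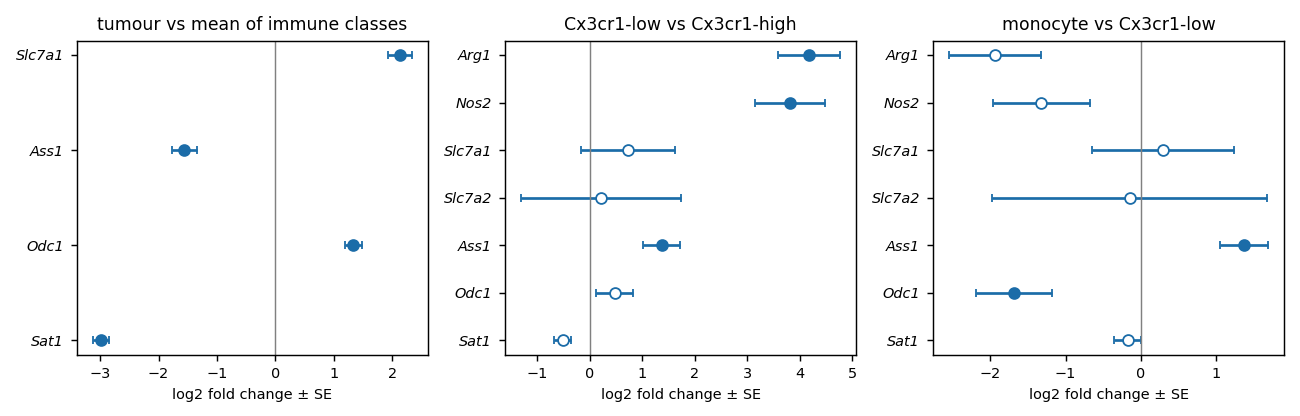
Log2 fold change (point) and SE (bar) of members in 3 comparisons, filled where called. Slc7a1 and Odc1 lie right of 0 and Ass1 and Sat1 left of it in tumour cells; Arg1, Nos2 and Ass1 are called in Cx3cr1-low against Cx3cr1-high macrophages. Members without a UMI in a class of the comparison are not drawn.

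The sets of called members overlapped between immune classes, with Ass1 and Sat1 each called in several of them. In Cx3cr1-high macrophages 3 were called, with 16.8% of genes called: Sat1 rose by 1.71 ± 0.11 (adjusted p = 2.69e-09), Slc7a1 fell by 1.50 ± 0.41 (adjusted p = 0.0114) and Ass1 fell by 1.03 ± 0.24 (adjusted p = 0.00408). The Slc7a1 and Ass1 differences were 0.09 and 0.96 once the neutrophils, without a UMI of either, entered the mean. Sat1 rose by 1.10 ± 0.15 in the Cx3cr1-low class (adjusted p = 4.56e-05), a call kept in 10 of 16 other settings. It was at -0.02 against the summed other immune cells, of which Cx3cr1-high macrophages were the largest class in cells and in UMIs.

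In monocytes 5 members were called, with 9.24% of genes called. Ass1 rose by 2.27 ± 0.22 (adjusted p = 1.05e-06) and Odc1 fell by 2.05 ± 0.36 (adjusted p = 0.000688). Arg1, Arg2 and Nos2 were the other 3 (adjusted p = 0.00697, 0.00115 and 0.00748). For each, the mean of the other classes runs over classes without a UMI, so that these calls rest in part on counts of 0. For Arg2 those were both macrophage classes, basophils and T cells, and DC had 5 UMIs in a single cell. Library 1 held 71 of the 73 monocyte Arg1 UMIs and library 2 all 35 of Nos2, and both calls ended in the robust test (adjusted p = 0.187 and 0.135). Against Cx3cr1-low macrophages 2 members were called in monocytes, with 6.98% of genes called. Ass1 rose by 1.38 ± 0.32 (adjusted p = 0.0123) and Odc1 fell by 1.69 ± 0.50 (adjusted p = 0.0494), and both calls ended when all cells passing a gate were used (adjusted p = 0.44 and 0.572). The Odc1 call was kept in 8 of 15 other settings.

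In T cells 2 members were called, with 9.07% of genes called: Odc1 rose by 1.91 ± 0.24 (adjusted p = 2.58e-05) and Sat1 fell by 1.09 ± 0.19 (adjusted p = 0.000692), which was kept in 12 of 17 other settings. In DC 2 were called, with 13.5% of genes called: Ass1 rose by 1.37 ± 0.24 (adjusted p = 0.000542) and Sat1 fell by 2.10 ± 0.18 (adjusted p = 1.88e-07). In basophils 2 were called, with 16.2% of genes called: Ass1 fell by 3.37 ± 0.40 (adjusted p = 8.10e-06) and Slc7a1 rose by 1.41 ± 0.40 (adjusted p = 0.0177). The Slc7a1 call ended, at 0.46, without the immune barcodes that had a UMI of Nes or Sox2, and a single basophil held 53.3% of the Slc7a1 UMIs.

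The rest of the pathway was read from lists of genes of arginine and the urea cycle, arginine transport and polyamines. In tumour cells 7 of 17 tested arginine genes rose and 3 fell, with a median of 1.03, where 3849 of all 13457 genes rose and 1214 fell, with a median of 0.76. Ddah1, which removes inhibitors of nitric oxide synthases, was at 13.6 and 13.2 CPM in tumour cells and had no UMI in Cx3cr1-low macrophages, DC or T cells (adjusted p = 1.17e-05). This call rests in part on those counts of 0. The floors of 3 UMIs were 7.69, 5.50 and 9.43 CPM in these classes, not far under the tumour level. Gch1, which makes the cofactor of nitric oxide synthases, fell by 1.61 ± 0.18 (adjusted p = 7.21e-07), and Gatm, which uses arginine for creatine, fell by 2.62 ± 0.88 (adjusted p = 0.017). Of the transporters 2 of 5 rose and none fell, beside the same counts over all genes: Slc7a3, a further cationic importer, at 17.0 and 15.8 CPM in tumour cells (adjusted p = 1.64e-06), and Slc7a6, at 17.2 CPM in either library (adjusted p = 0.000684).

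Of 17 polyamine genes 8 rose in tumour cells and 1 fell, beside the 3849 and 1214 of 13457 over all genes, with a median of 1.11 beside 0.76. Sms, spermine synthase, rose by 2.41 ± 0.22 (adjusted p = 3.15e-08) and was at 190.2 and 196 CPM in tumour cells. Srm, spermidine synthase, rose by 1.87 ± 0.19 (adjusted p = 2.57e-07), and Amd1, which makes the aminopropyl donor of both, by 1.64 ± 0.25 (adjusted p = 1.86e-05). Smox, which turns spermine back into spermidine, was at 62.4 and 62.7 CPM in tumour cells and at 911 and 319 CPM in neutrophils. Oaz1, antizyme that marks Odc1 for degradation, was at 738 and 698 CPM in tumour cells and at 684 to 1315 CPM in the immune classes with at least 20 cells per library.

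Between macrophage classes, 1 of 17 arginine genes rose in the Cx3cr1-low class and none fell. That was Gch1, with 1.52 ± 0.40 (adjusted p = 0.0487), at 47.0 and 50.4 CPM against 18.7 and 16.1 CPM. Of the polyamine genes 1 of 17 rose, Azin1, which shields Odc1 from antizyme, with 1.20 ± 0.30 (adjusted p = 0.0359). None of 13 tested genes of alternative activation was called. Of 14 genes of classical activation 1 rose and 2 fell: Ptgs2 rose by 2.44 ± 0.49 (adjusted p = 0.011), while Cxcl10 fell by 2.54 ± 0.34 (adjusted p = 0.000305) and Ifngr1 fell by 1.04 ± 0.24 (adjusted p = 0.0242). Over all genes 133 rose and 181 fell, or 189 and 160 with DESeq2. Arg1 belongs to what is known of alternative and Nos2 of classical activation, and both stood higher in the same class.

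In monocytes 2 of 17 arginine genes rose and 1 fell, where 1044 of all 13457 genes rose and 200 fell (9.24% called). Gch1 was at 102 and 108 CPM, with a rise of 1.67 ± 0.24 (adjusted p = 9.57e-05). Smox rose by 2.45 ± 0.23 (adjusted p = 5.28e-07) among 3 of 17 polyamine genes that rose, with none that fell. Asl, the partner of Ass1 in arginine resynthesis, rose in DC by 1.24 ± 0.26 (adjusted p = 0.00227), at 108 and 90.5 CPM, and Ass1 was called higher there too. In monocytes Asl was at 53.2 and 35.9 CPM. T cells had no Slc7a7 UMI, the arginine exporter found at 89.2 and 86.1 CPM in Cx3cr1-high macrophages.

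Likeness to other genes was described over 16 sums, 8 classes in 2 libraries, by Pearson's r of log2(CPM + 1). The sums share libraries and differ in depth, and no test was made. Nos2 was most like Nr1h3 (r = 0.99), Gpx3 (0.91) and Cracr2b (0.90), and Arg1 most like Selenbp1 (0.95), AI463229 (0.94) and Gm38843 (0.92). Arg2 was most like Scnn1a (0.95), Slfn4 (0.92) and Dgat2 (0.92), Ass1 most like Pdxk (0.96), Nkiras2 (0.94) and Bckdha (0.94). Odc1 was most like Eef1d (0.96), the polyamine gene Srm (0.94) and Zc3h14 (0.94), and Slc7a1 most like Tex30 (0.97), Pabpc4 (0.95) and Dkc1 (0.95). Sat1 was most like Fuca2 (0.98), Vsir (0.96) and Vav1 (0.95), and Slc7a2 most like Junos (0.83), Abca9 (0.81) and Stard9 (0.81). Among the members, Slc7a1 and Odc1 were most like each other (0.78), as were Arg1 and Nos2 (0.70).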

How the data were processed

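UMI counts per gene and barcode were deposited by the authors as 2 matrices. Per the labels' protocols and the submitters' processing notes, Cell Ranger 3.1 with STAR aligned reads to mm10 and counted them; whether the deposited counts come before or after its depth equalization is not given in the sources used here. Members, gates and gene lists were chosen with earlier results of these data known. UMIs were summed per class and library for cells passing a single gate (no doublets were removed; scrublet, an alternative, marked 14 of 3186 kept cells). Classes with at least 20 cells per library gave 14 sums. They were tested across all genes with at least 10 UMIs in 2 sums, using edgeR 4.0.16 (TMM, library as block, Benjamini-Hochberg adjustment). The small-count version of its quasi-likelihood fit was used because the default gave infinite prior degrees of freedom, a choice made after seeing the data. For Cx3cr1-low against Cx3cr1-high macrophages alone, the test was also run on simulated counts without a library effect. The outcome is not given here, and the other comparisons were not simulated. SE is the fold change over the square root of F. Named genes are the 8 members, fixed pathway partners, at most 3 called genes per list and direction, and the 3 most alike genes; Vegfa, Smox, Tmem119 and Ccl24 beside Arg1, and the markers of the cells without a gate, were picked after their values were seen. Software was Python 3.11.15, scanpy 1.11.5 and DESeq2 1.42.0. Coordinates are from GENCODE for GRCm38.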

Additional observations from a re-analysis of the deposited data

Results flagged for a closer look

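All 8 members were found in the 331 kept cells that passed no gate and so entered no comparison, each above the 3 UMIs that a count of 0 allows. They held 699 UMIs of Arg1, 8 of Arg2, 32 of Nos2, 385 of Slc7a1, 48 of Slc7a2, 329 of Ass1, 1149 of Odc1 and 440 of Sat1. Of these the Arg1 level stood out, at 106 CPM over all such cells (77.4 and 153 CPM in the libraries), since 17 cells held all of it. Odc1 was at 174 and 173 CPM there, and Slc7a1 at 66.8 and 43.8 CPM.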

How the results depend on the processing

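With 2 libraries of 1 group, the test on 14 sums has 6 residual degrees of freedom; the summed comparisons and the one with neutrophils have other numbers. Both libraries were sampled for every class, and library was kept as a block; with no replicate block all 26 calls of members were kept, and 5247, 391 and 1118 genes were called in tumour against immune, Cx3cr1-low against Cx3cr1-high and monocyte against Cx3cr1-low, in place of 5063, 314 and 939. DESeq2 kept 22 of the 26 calls, RLE factors 25, the robust test 22, edgeR's default settings 26 and the use of all cells passing a gate 17. Without barcodes lacking Malat1, where the Cx3cr1-low class drops out, 17 of 18 were kept, with other immune classes summed 16 of 21 and with the neutrophils entered 19 of 26.

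Counts of called genes moved most with filterByExpr (2565 for tumour, 1418 for Cx3cr1-high), with all cells passing a gate (601 for Cx3cr1-low, 4733 for basophils and 325 for monocytes against Cx3cr1-low) and with summed immune cells (0 for Cx3cr1-low, in place of 1150); the cause was not tested, except that filterByExpr tested 6746 genes. DESeq2, which changes the model as well as the scaling, moved the split of higher to lower calls from 1927 and 329 to 1419 and 755 in Cx3cr1-high macrophages, and from 575 and 646 to 696 and 530 in T cells. Signs turned, with no call, for Slc7a1 (0.087) and Ass1 (0.96) in Cx3cr1-high macrophages and for Ass1 (0.25) in tumour cells when the neutrophils entered, and for Sat1 (-0.019) in Cx3cr1-low macrophages against summed cells. Monocyte Nos2 ran from -2.74 without library 2 to 5.73 without library 1; library 1 has no Nos2 UMI in monocytes, so the first sign was fixed by that 0 and neither value is a measure of size.

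The Arg1 share in Cx3cr1-low macrophages was 37.5% among the 16 barcodes with Malat1, while the Arg1 level was 282 CPM (23 UMIs) there, in place of 441 CPM, and 747 CPM with all cells passing the gate. The Arg2 share in neutrophils was 44.9% at 1000 UMIs and 38.7% at a limit of 2 UMIs. The ratio of cells with Arg1 and Nos2 to the product of shares was 1.33 in Cx3cr1-low macrophages with Malat1. Over macrophages and monocytes it went from 6.04 to 7.67 when thinned and 5.18 with Malat1. The ratio for Arg1 and Ass1 over the same cells went from 2.29 to 3.31 and 2.38. Both pooled ratios also reflect that the classes differ in their shares. For Nos2 the share was 2.02% in Cx3cr1-high and 12.6% in Cx3cr1-low macrophages, and for Arg1 3.18% and 21.1%. They are therefore no measure of co-expression within a class.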
